A study of Mus musculus with 12 samples.

Results

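Sirtuins are protein deacylases that use NAD+ as a co-substrate, and mRNA of 6 mouse sirtuin genes was examined here in osteoblasts given the histone deacetylase inhibitor SAHA. The 6 genes, of 19057 with a symbol on the array, were taken by name, with all 10 probes annotated to Sirt1, Sirt2, Sirt3, Sirt5, Sirt6 or Sirt7 of 45281, whatever their values. The cells were MC3T3 sc4, 1 subclone of a line from mouse calvaria, which forms osteoblasts in medium with ascorbic acid and beta glycerol phosphate. On day 4 in this medium 1 set of cells received 20 µM SAHA (vorinostat) for 6 h, a second set 20 µM SAHA for 2 h, and the controls received only its solvent DMSO. Each of these 3 groups had 4 arrays. Before RNA extraction all 3 groups were digested with collagenase for 40 min. By the protocol SAHA or DMSO was still present, and 200 ng of RNA was labelled. The treatment protocol describes a 2 h exposure alone, and the order of digestion for the 6 h group is not given. How long the controls stayed in DMSO is not given either, so time in SAHA and time in culture cannot be told apart. Whether the arrays within a group represent separate cultures is not stated, and a p-value here therefore covers the spread of these samples, which may be technical.

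SAHA acts on enzymes of the zinc-dependent histone deacetylase family, whereas the sirtuins, a separate family with an NAD+-dependent reaction, are not its targets. Sirt1, Sirt6 and Sirt7 act mainly in the nucleus on histones and transcription factors, Sirt7 mostly in the nucleolus, while Sirt2 is mainly cytoplasmic and Sirt3 and Sirt5 are mitochondrial. Because they need NAD+, their activity can depend on its supply, and mRNA level alone does not give activity.

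All 10 sirtuin probes are annotated to 1 gene each. The positions below are those of the genes in the mouse assembly GRCm38.p6, and the probes themselves were not aligned to it. Sirt1 lies at chr10:63319005-63339035, Sirt2 at chr7:28766752-28788665, Sirt3 at chr7:140863663-140882309, Sirt5 at chr13:43365389-43395203, Sirt6 at chr10:81621787-81627792 and Sirt7 at chr11:120618371-120625014. Sirt6 was measured by 3 probes, Sirt5 and Sirt7 by 2 each, and the other 3 genes by 1 each. Probes of 1 gene are not independent. Those of Sirt5 are annotated to 1 transcript record, as are those of Sirt6, whereas the 2 of Sirt7 are annotated to different records. Where in a transcript each probe lies is not given in the sources used here.

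The promoters of 3 genes with contrasting responses are shown, from RefSeq on GRCm38.p6, each from 250 bases before a listed start of transcription to 50 after it. These are Sirt1, which fell more at 2 h than at 6 h, Sirt5, which fell by both of its probes, and Sirt7, the sirtuin that rose most. Capitals mark matches on either strand to CACGTG (an E-box), to CCAAT (the sequence bound by NF-Y), to GGGCGG (a GC box) and to CCGGAAG (an ETS motif), and TATAAA (the TATA box) was searched as well.
Sirt1, chr10:63338986-63339285, minus strand: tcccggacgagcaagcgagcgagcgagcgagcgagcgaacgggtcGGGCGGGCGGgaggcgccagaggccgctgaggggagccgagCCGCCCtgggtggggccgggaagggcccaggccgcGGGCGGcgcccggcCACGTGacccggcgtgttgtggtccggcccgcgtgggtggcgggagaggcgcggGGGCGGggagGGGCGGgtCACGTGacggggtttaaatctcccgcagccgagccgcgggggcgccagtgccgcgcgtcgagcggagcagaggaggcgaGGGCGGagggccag
Sirt5, chr13:43365285-43365584, plus strand: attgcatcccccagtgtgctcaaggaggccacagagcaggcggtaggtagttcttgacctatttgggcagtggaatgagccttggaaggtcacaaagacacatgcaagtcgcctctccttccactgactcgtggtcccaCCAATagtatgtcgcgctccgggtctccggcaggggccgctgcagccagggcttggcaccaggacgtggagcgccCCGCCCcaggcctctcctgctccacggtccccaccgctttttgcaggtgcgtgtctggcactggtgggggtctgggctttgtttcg
Sirt7, chr11:120624965-120625264, minus strand: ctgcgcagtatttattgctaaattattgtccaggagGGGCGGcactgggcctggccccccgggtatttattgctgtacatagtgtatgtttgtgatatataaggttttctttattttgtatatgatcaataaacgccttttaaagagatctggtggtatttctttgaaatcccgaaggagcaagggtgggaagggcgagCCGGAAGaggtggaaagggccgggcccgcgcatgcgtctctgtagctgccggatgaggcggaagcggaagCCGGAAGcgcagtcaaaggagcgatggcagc
The Sirt1 window held 47 CpG dinucleotides, against 17 in Sirt7 and 15 in Sirt5, and 98.6% of 32851 mouse promoter windows of this length had fewer than Sirt1 (median of all, 7). It held 2 copies of CACGTG, a motif present in 7.15% of the windows, and 7 of GGGCGG, a motif present in 35.7%, of which 1 pair overlapped. The Sirt7 window held 2 copies of CCGGAAG, found in 8.86% of the windows, and 1 of GGGCGG. This GGGCGG lies in the part of the window that overlaps the upstream gene Mafg. In the Sirt5 window there was 1 CCAAT, found in 37.4%, and 1 GGGCGG. Most of the Sirt5 window lies inside the gene as placed above, because the start it follows is downstream of the gene's first base. The TATA box TATAAA, present in 13.6% of all windows, occurred in none of the 8 windows that RefSeq lists for the 6 genes. A match is only a description of these letters.

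Each array gave a linear intensity and a detection p-value for every probe. A probe was called detected on an array at a detection p under 0.01, and 16431 probes detected on at least 4 of the 12 arrays were tested. Between 15264 and 15705 probes were detected per SAHA 6 h array, 14904 to 15982 per SAHA 2 h array and 15610 to 16065 per DMSO array. Background-corrected, quantile-normalized log2 intensities were compared with limma, with an adjusted p under 0.05 taken as a call. All 8 osteoblast markers that had a probe, Col1a1, Bglap and Ibsp among them, were detected, whereas 0 of 6 adipocyte and 0 of 4 endothelial markers were. Not all osteoblast markers kept their level. Mean log2 intensity of Sp7 was 8.46 after 6 h, 10.58 after 2 h and 12.69 in DMSO, and that of Alpl 8.03, 9.02 and 9.18. Col1a1, Ibsp and Postn had slightly higher means after 6 h than in DMSO. Of the macrophage and blood markers 2 of 5 with a probe were detected (Csf1r and Cd14), with Ptprc, Adgre1 and Spi1 undetected on all arrays, and their summed normalized intensity was 187 to 210 after 6 h, 256 to 301 after 2 h and 321 to 403 in DMSO. Chondrocyte markers had 3 of 6 detected and summed to 3377 to 3869, 3445 to 3909 and 3947 to 4410 in the same groups, with Acan, Matn3 and Col9a1 undetected. Muscle markers had 3 of 5 detected and summed to 328 to 371, 301 to 340 and 363 to 405, with Myod1 and Ckm undetected. The part of these differences in the sirtuin results was not tested. In RNA from a whole culture, fewer cells that express a gene and less RNA per cell cannot be told apart.

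Sirt1, the nuclear deacetylase of p53, FOXO factors and histone H4 lysine 16, was lower after SAHA at both times, and less so at 6 h than at 2 h, a difference that was not called with median scaling or with no normalization between arrays. The Sirt1 probe ILMN_2643159 read 9.18, 9.05, 9.04 and 9.07 after 6 h of SAHA, 8.82, 8.34, 8.62 and 8.71 after 2 h and 10.03, 9.68, 10.01 and 9.81 in DMSO (log2 intensity on each array). Every array of both SAHA groups lay below every DMSO array, and the SAHA 6 h arrays lay above all of the SAHA 2 h arrays. Sirt1 was 1.74-fold lower after 6 h of SAHA than in DMSO (log2 change -0.80 ± 0.10, limma adjusted p = 1.11e-05) and 2.40-fold lower after 2 h (-1.26 ± 0.10, adjusted p = 3.33e-07). The number after ± is, for every log2 change, the standard error from limma (n = 4 per group). At 2 h only 1.79% of all tested probes had a lower log2 change than Sirt1, whereas at 6 h 14.3% did.

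Sirt7, which removes acetyl groups from histone H3 lysine 18 and binds the ribosomal RNA genes with the RNA polymerase I machinery, rose at both times. Log2 intensities of the Sirt7 probe ILMN_1253970 were 13.21, 13.32, 13.24 and 13.17 in the SAHA 6 h group, 12.80, 12.92, 12.84 and 12.69 in the SAHA 2 h group and 12.03, 12.12, 12.05 and 12.07 in the DMSO group. The 3 groups did not overlap, with the SAHA 6 h arrays highest and the DMSO arrays lowest. Sirt7 was 2.25-fold higher after 6 h than in DMSO (log2 change 1.17 ± 0.06, limma adjusted p = 1.46e-09) and 1.68-fold higher after 2 h (0.75 ± 0.06, adjusted p = 3.54e-07). Of all tested probes 93.5% had a lower log2 change at 6 h and 93.7% at 2 h. The other Sirt7 probe, ILMN_1215571, was not detected on any of the 12 arrays (detection p 0.152 to 0.763) and was not tested. It is annotated to another transcript record than the tested probe.

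Sirt6, a nuclear deacetylase of histone H3 lysine 9 that restrains glycolytic genes, was near the detection limit. All 3 of its probes were detected on all 4 DMSO arrays, and none would have passed the filter without this group. ILMN_2671176 passed through it alone. A lower signal elsewhere is thus built into the selection of the 3 probes, and their adjusted p-values are no independent support for a fall. After 6 h of SAHA the 3 probes were detected on 0, 2 and 0 of 4 arrays, and after 2 h on 0, 1 and 1. By array, the Sirt6 probe ILMN_2671176 gave log2 intensities of 5.87, 5.67, 5.54 and 5.95 after 6 h, 5.59, 5.80, 5.67 and 5.70 after 2 h and 6.52, 6.58, 6.61 and 6.57 in DMSO. The SAHA arrays of both times lay below every DMSO array and overlapped each other. As this probe was undetected in both SAHA groups, its fall is given as a bound that holds only on the main normalized scale. There it was at least 1.39-fold lower after 6 h and at least 1.41-fold lower after 2 h. The limma adjusted p-values, 1.14e-06 and 1.30e-06, belong to the log2 changes themselves and not to the bounds.

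The other Sirt6 probes ran the same way. On the log2 scale the Sirt6 probe ILMN_2684909 had 6.21, 6.09, 5.91 and 5.82 on the SAHA 6 h arrays, 5.98, 5.86, 5.81 and 6.17 on the SAHA 2 h arrays and 6.38, 6.61, 6.52 and 6.71 on the DMSO arrays. The Sirt6 probe ILMN_2684910 read 5.65, 5.61, 5.33 and 5.21 after 6 h of SAHA, 5.44, 6.04, 5.51 and 5.20 after 2 h and 6.57, 6.19, 6.57 and 6.48 in DMSO (log2 intensity on each array). On both probes all SAHA arrays lay below the DMSO arrays. ILMN_2684909 had log2 changes of -0.54 ± 0.10 at 6 h (limma adjusted p = 0.000362) and -0.60 ± 0.10 at 2 h (0.000289), and these rest on 2 detected arrays at 6 h and 1 at 2 h. ILMN_2684910 was undetected at 6 h, where its level was lower than in DMSO by at least 1.28-fold (adjusted p = 7.01e-05), and with 1 array detected at 2 h its log2 change was -0.91 ± 0.16 (0.000321). The size of these falls depended on background correction. Without it the log2 changes of ILMN_2671176, ILMN_2684909 and ILMN_2684910 were -0.37, -0.26 and -0.44 at 6 h and -0.40, -0.28 and -0.40 at 2 h, and on the authors' normalized values -0.40, -0.27 and -0.47 at 6 h and -0.44, -0.30 and -0.43 at 2 h, all still called. For ILMN_2671176 these are smaller falls than its bounds on the main scale. With an offset of 50 in place of 16 ILMN_2684910 had -0.65 at 6 h and -0.58 at 2 h.

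**Figure D1:**
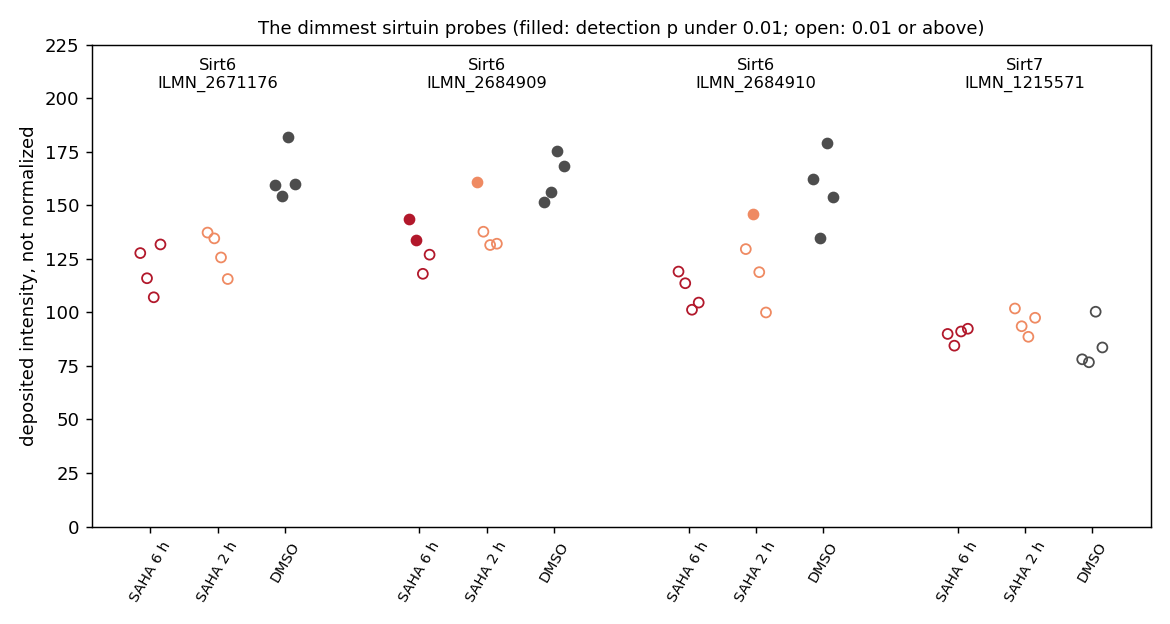
Deposited intensity, before any normalization, of the 3 Sirt6 probes and of the Sirt7 probe that was not detected, on each of 12 arrays. Filled circles are arrays with a detection p under 0.01 and open circles the others. The 4 DMSO arrays of each Sirt6 probe are filled and the SAHA arrays are mostly open, while the Sirt7 probe ILMN_1215571 is open throughout at 76.7 to 102.

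Sirt2, the mainly cytoplasmic sirtuin that deacetylates tubulin and regulators of mitosis, rose at 6 h. Log2 intensities of the Sirt2 probe ILMN_2676181 were 10.32, 10.35, 10.30 and 10.25 in the SAHA 6 h group, 10.17, 10.06, 10.06 and 10.26 in the SAHA 2 h group and 9.99, 9.78, 10.05 and 10.04 in the DMSO group. Both SAHA groups lay above the DMSO arrays, by a margin under 0.01 at 2 h, and overlapped each other. The log2 change was 0.34 ± 0.07 at 6 h (1.27-fold higher, limma adjusted p = 0.000876). At 2 h it was 0.17 ± 0.07 (95% interval 0.01 to 0.33), which did not pass the threshold (adjusted p = 0.0660). It was 0.11 without DMSO array 2 (adjusted p = 0.207). With no normalization between arrays the value at 6 h was 0.30 and was no longer called (adjusted p = 0.166), and that at 2 h was 0.38 (adjusted p = 0.0968), or 0.18 relative to the shift of 0.20 in the median of all probes. The value at 2 h was called with the trend and robust options of limma (adjusted p = 0.0490). Only 38.5% of all tested probes had a smaller absolute change than Sirt2 at 6 h, and 35.9% at 2 h.

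Sirt3, the main deacetylase of the mitochondrial matrix, rose at both times. By array, the Sirt3 probe ILMN_2737480 gave log2 intensities of 10.25, 10.38, 10.36 and 10.23 after 6 h, 9.99, 10.17, 10.00 and 10.08 after 2 h and 9.61, 9.75, 9.85 and 9.81 in DMSO. The 3 groups did not overlap, and the SAHA 6 h arrays were highest. The log2 change was 0.55 ± 0.07 at 6 h (1.46-fold higher, limma adjusted p = 9.66e-06) and 0.30 ± 0.07 at 2 h (1.23-fold higher, adjusted p = 0.00253). With no normalization between arrays the change at 2 h was 0.51, or 0.31 relative to the shift of 0.20 in the median of all probes. Of all tested probes 56.2% had a smaller absolute change than Sirt3 at 6 h and 56.1% at 2 h.

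Sirt5, a mitochondrial enzyme that removes succinyl, malonyl and glutaryl groups from lysine, fell by both of its probes at both times. On the log2 scale the Sirt5 probe ILMN_2711045 had 6.79, 6.92, 7.31 and 6.82 on the SAHA 6 h arrays, 7.34, 7.58, 7.14 and 7.42 on the SAHA 2 h arrays and 8.29, 8.55, 8.37 and 8.49 on the DMSO arrays. The other Sirt5 probe, ILMN_2707079, read 6.56, 6.90, 6.89 and 6.99 after 6 h of SAHA, 6.99, 6.99, 6.97 and 6.97 after 2 h and 7.90, 8.09, 8.01 and 8.11 in DMSO (log2 intensity on each array). On both probes all SAHA arrays lay below all DMSO arrays, and the SAHA groups overlapped each other. ILMN_2711045 was 2.76-fold lower after 6 h (-1.46 ± 0.12, limma adjusted p = 8.98e-08) and 2.08-fold lower after 2 h (-1.05 ± 0.12, adjusted p = 5.90e-06). ILMN_2707079 was 2.29-fold lower after 6 h (-1.19 ± 0.09, adjusted p = 2.67e-08) and 2.07-fold lower after 2 h (-1.05 ± 0.09, adjusted p = 2.93e-07). Without background correction ILMN_2707079 had -0.79 at 6 h. Sirt3 and Sirt5, which share the mitochondrial matrix, thus had log2 changes of opposite sign at both times.

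**Figure D2:**
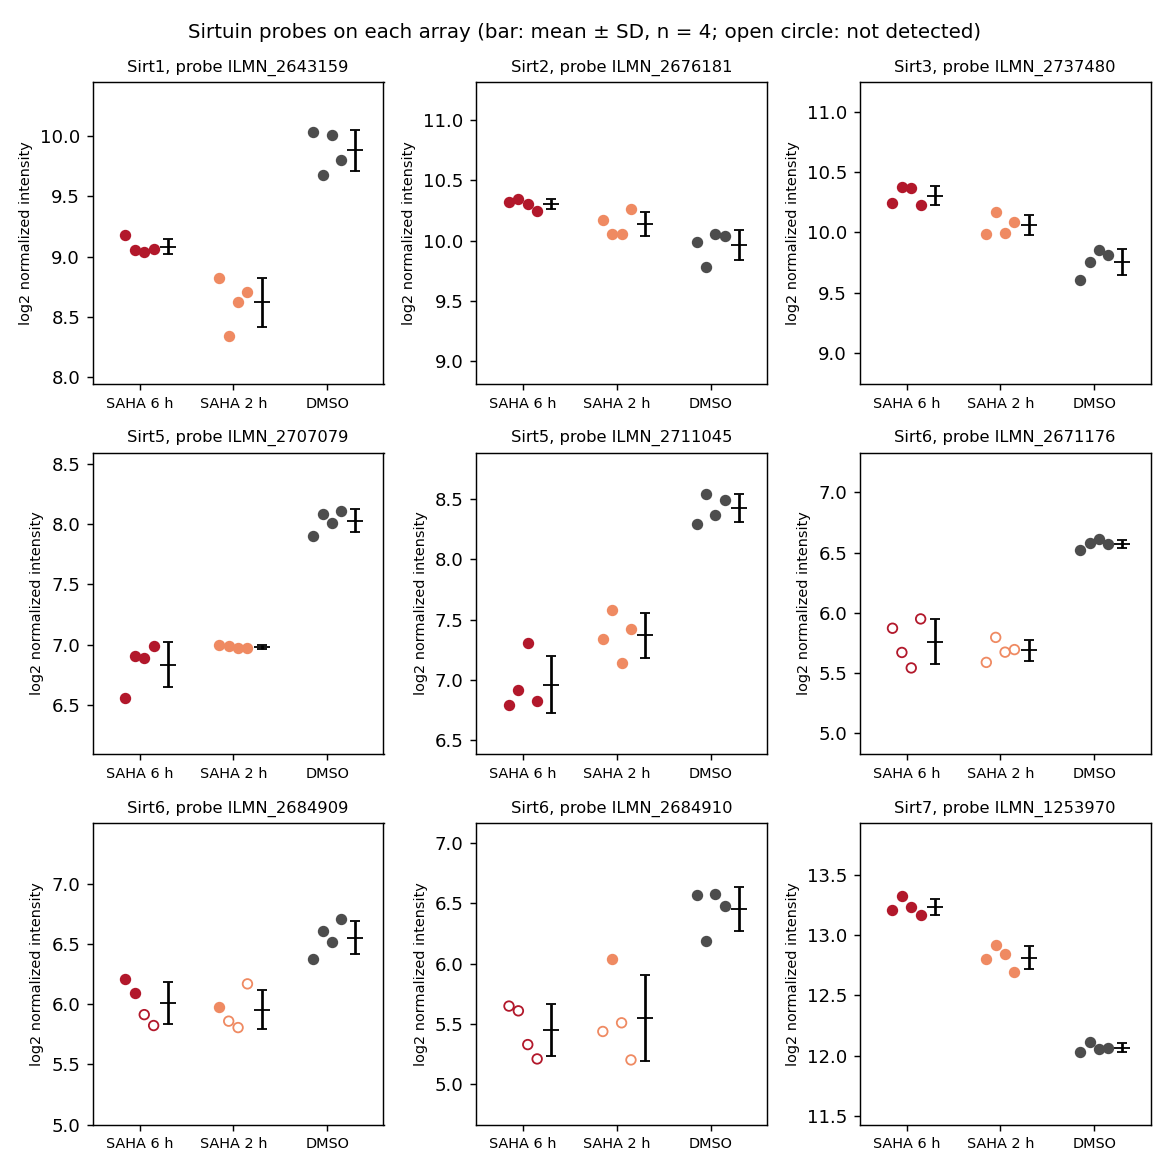
Log2 normalized intensity of the 9 tested sirtuin probes on the SAHA 6 h, SAHA 2 h and DMSO arrays, 1 panel a probe, with a common span but a different level on each vertical axis. Circles are single arrays (open where not detected), and bars give the mean ± SD (n = 4). The Sirt7 and Sirt3 panels step down toward DMSO without overlap. The Sirt5 panels are highest in DMSO, with the lowest mean after 6 h but SAHA groups that overlap. The Sirt6 panels are highest in DMSO, and Sirt1 is lowest after 2 h.

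Against DMSO, 6 h of SAHA changed all 9 tested sirtuin probes, 3 higher (Sirt2, Sirt3, Sirt7) and 6 lower (Sirt1, both of Sirt5, 3 of Sirt6), and all 9 had groups that did not overlap. Over all 16431 tested probes 72.9% were called, 36.9% higher and 36.0% lower, and 65.9% had groups that did not overlap. At 2 h 8 of 9 probes were called, 2 higher (Sirt3, Sirt7) and 6 lower, against 53.5% of all probes (27.3% higher, 26.1% lower), and all 9 had groups that did not overlap, against 49.0%. The 3 Sirt6 probes would not have passed the filter without the DMSO group. Their 3 lower calls at each time, and their groups that do not overlap, are thus built into their selection. The calls at both times share the DMSO arrays. With only probes detected on all 12 arrays, 6 sirtuin probes were left, of which 6 were called at 6 h and 5 at 2 h.

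**Figure D3:**
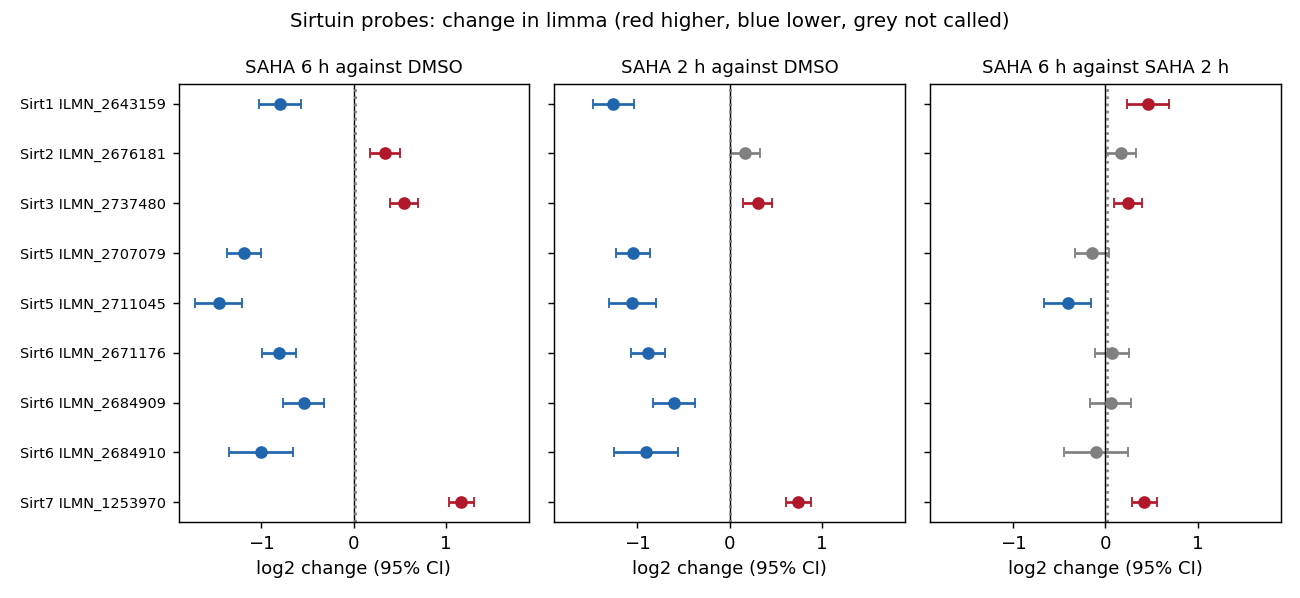
Log2 change with its 95% interval for each tested sirtuin probe in limma, for SAHA 6 h over DMSO, SAHA 2 h over DMSO and SAHA 6 h over SAHA 2 h. Red is called higher, blue called lower and grey not called, and the dotted line is the median of all 16431 probes. At 6 h the values run from -1.46 (Sirt5) to 1.17 (Sirt7), and at 2 h from -1.26 (Sirt1) to 0.75 (Sirt7).

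Between 6 h and 2 h of SAHA 4 of 9 sirtuin probes were called, 3 higher and 1 lower, against 56.3% of all probes (29.4% higher, 26.9% lower). Groups did not overlap for 3 of the 9 (Sirt1, Sirt3, Sirt7), against 50.0% of all probes. Sirt1 was 0.46 ± 0.10 higher on the log2 scale at 6 h (limma adjusted p = 0.00199), Sirt7 0.42 ± 0.06 higher (adjusted p = 7.33e-05) and Sirt3 0.24 ± 0.07 higher (adjusted p = 0.00991). These 3 calls were lost when arrays were scaled to a common median (log2 changes 0.31, 0.28 and 0.10, adjusted p = 0.0917, 0.0749 and 0.522) and with no normalization between arrays (0.19, 0.16 and -0.016, adjusted p = 0.450, 0.536 and 0.961). Under those settings the median of all probes shifted to -0.09 and -0.21, and relative to that shift Sirt1, Sirt7 and Sirt3 had 0.40, 0.37 and 0.20 after median scaling. Sirt5 was lower at 6 h by ILMN_2711045 (-0.41 ± 0.12, adjusted p = 0.00971), with groups that overlapped, while ILMN_2707079 did not pass (-0.15 ± 0.09, 95% interval -0.33 to 0.04, adjusted p = 0.166). The value of ILMN_2707079 was -0.054 without SAHA 6 h array 9 (adjusted p = 0.513), and with no normalization it was -0.35 (adjusted p = 0.126), or -0.14 relative to the shift. Without background correction ILMN_2711045 had -0.25, and with no normalization -0.62 (-0.41 relative to the shift), both still called. Sirt2 had a log2 change of 0.17 ± 0.07 (95% interval 0.01 to 0.33, adjusted p = 0.0644), which 8 alternative settings called (adjusted p = 0.0303 to 0.0499), among them leaving out DMSO array 2 (0.17) or SAHA 2 h array 8 (0.21). The Sirt6 probes had 0.06 ± 0.10 for ILMN_2684909 (adjusted p = 0.669) and the other 2 probes were detected on no more than 1 of 4 arrays at either time.

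The genes whose log2 intensity followed each sirtuin most closely over the 12 arrays, among 8922 named genes and by the sirtuin's brightest tested probe, are given by Pearson's r as a description. The 12 arrays fall into 3 groups, whose differences enter r, and they share 1 normalization. Sirt7 was followed by Agfg2 (r = 0.997), Inpp5k (0.995), a phosphoinositide phosphatase, and Miga2 (0.995), a protein of the outer mitochondrial membrane. For Sirt1 they were Ints12 (0.986), a subunit of the Integrator complex, the Golgi SNARE Gosr1 (0.980) and Ccdc43 (0.979). Sirt3 was followed by Parp1 (0.978), a nuclear NAD+ consumer, Pex11a (0.978), a peroxisome division factor, and Mrpl34 (0.975), a mitochondrial ribosomal protein. The genes closest to Sirt5 were Isy1 (0.984), a splicing factor, the kinase Irak2 (0.979) and Pgm1 (0.979). Sirt6 was nearest to Dnttip1 (0.951), which belongs to a complex of class I histone deacetylases, then Ppcs (0.939) and the DNA glycosylase Mpg (0.934). The Sirt6 probe used, ILMN_2684909, was detected on 7 of the 12 arrays, so these r rest partly on values near the detection limit. Sirt2 had the lowest leading values, with Gapdh (0.930), Trappc3 (0.921) and Sgsm2 (0.918).

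Genes next to the sirtuins on the genome, within 1 kb by the GRCm38.p6 annotation, did not all move with them. They were chosen by position after other results were seen. Sirt2 and Nfkbib, which encodes an inhibitor of NF-kappaB, start 108 bases apart on opposite strands. Nfkbib rose by 1.26 ± 0.07 at 6 h and 0.98 ± 0.07 at 2 h on the log2 scale (limma adjusted p = 1.63e-09 and 6.54e-08), against 0.34 and 0.17 for Sirt2. Sirt3 and Psmd13, a subunit of the proteasome, start 85 bases apart, and Psmd13 rose by 0.29 ± 0.06 at 6 h and 0.16 ± 0.06 at 2 h (adjusted p = 0.000555 and 0.0353). Mafg, a small Maf transcription factor that lies upstream of Sirt7 on the same strand, fell where Sirt7 rose. Its 2 probes had -1.07 ± 0.06 and -1.09 ± 0.08 at 6 h and -0.91 ± 0.06 and -0.85 ± 0.08 at 2 h. Pcyt2, an enzyme of phosphatidylethanolamine synthesis on the other side of Sirt7, rose at 6 h by 0.74 to 0.75 on 3 probes, while at 2 h 1 of them passed (0.24) and the others had 0.16 and 0.17. Ankrd24 starts 29 bases from the outer bound of the Sirt6 gene, and the starts listed for the Sirt6 promoter windows lie further inside that gene. Ankrd24 had 2 probes. Neither these nor the single probes of Rinl (beside Sirt2) and Ric8a (whose end overlaps that of Sirt3) passed the filter.

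Related gene lists were examined, with each gene represented by its tested probe of highest mean. Over all 9153 genes so represented 76.4% were called at 6 h (38.3% higher, 38.0% lower, median log2 change 0.01) and 56.6% at 2 h (27.0% higher, 29.6% lower, median -0.02). The counts of every list below stand against these shares. The list of NAD+ synthesis holds enzymes that make NAD+, the co-substrate of sirtuins, and also the NAD kinases Nadk and Nadk2, the transporter Slc25a51 and Nnmt. Of 8 measured of 16 listed, 6 rose, 1 fell and 1 did not pass at 6 h (median 0.46), and 3 rose, 1 fell and 4 did not pass at 2 h (median 0.30). Nmrk1, the nicotinamide riboside kinase, rose by 1.93 ± 0.08 at 6 h and by 0.85 ± 0.08 at 2 h (limma adjusted p = 1.38e-10 and 1.10e-06). Naprt, which makes NAD+ from nicotinic acid, rose by 1.83 ± 0.09 and 0.98 ± 0.09 at the same times. Its other probe was undetected after 2 h and in DMSO, and was higher at 6 h than in DMSO by at least 1.33-fold. That probe passed the filter only through the SAHA 6 h group, so its rise is built into its selection. Nadk2, the mitochondrial NAD kinase, had no detected signal after 2 h or in DMSO and was higher at 6 h than in DMSO by at least 1.20-fold, but it passed the filter only through the SAHA 6 h group, so that its place among the 6 that rose is built into its selection. With Nadk2 at this bound the median of the list was 0.29 at 6 h, and without it 0.25 at 2 h. Nnmt, which methylates nicotinamide and so removes it from recycling, fell by 1.34 ± 0.06 at 6 h and had -1.42 and -1.43 on its other 2 probes.

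The other enzymes that consume NAD+ were more often lower than higher. Of 12 measured of 17, 2 rose, 7 fell and 3 did not pass at 6 h (median -0.32), and 2 rose, 5 fell and 5 did not pass at 2 h (median -0.21). Of all 9153 genes 76.4% were called at 6 h (38.3% higher, 38.0% lower) and 56.6% at 2 h (27.0% higher, 29.6% lower). Parp14, a mono-ADP-ribosyltransferase, had no detected signal after 6 h, at least 4.34-fold lower than the DMSO level (limma adjusted p = 1.07e-11). Parp8 had -2.47 ± 0.10, Parp12 -1.77 ± 0.10 and Parp3 -1.48 ± 0.10 at 6 h, against -0.54, -0.74 and -0.24 at 2 h, of which that of Parp3 did not pass. Parp1, the main poly-ADP-ribose polymerase, rose by 0.72 ± 0.06 at 6 h and 0.40 ± 0.06 at 2 h, and its other probes rose by 0.71 and 0.84 at 6 h.

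Regulators and partners of Sirt1 were split, with 6 of 12 measured genes (15 listed) higher, 5 lower and 1 not passing at 6 h (median 0.18), and 3, 1 and 8 at 2 h (median -0.08). The kinases Dyrk3 and Dyrk1a both phosphorylate SIRT1 in human cells. Dyrk3 rose by 2.68 ± 0.09 at 6 h, whereas Dyrk1a had -1.69 ± 0.11 (-0.99 by its other probe). Usp22, a deubiquitinase that stabilises Sirt1, rose by 1.14 ± 0.05, and Ctbp2, a corepressor that acts with Hic1 on the Sirt1 promoter, fell by 0.64 ± 0.08. Hic1 itself, a repressor of Sirt1, had -0.44 ± 0.15 at 6 h (adjusted p = 0.0160) and is named outside the rule that chose the genes.

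Substrates of Sirt1 had 9 of 18 measured genes (29 listed) higher, 5 lower and 4 not passing at 6 h (median 0.23), and 7, 6 and 5 at 2 h (median 0.16). Notch1, whose intracellular domain is deacetylated by Sirt1, rose by 1.97 ± 0.09 at 6 h. Xrcc6 (Ku70) rose by 1.09 ± 0.05, the FOXO factor Foxo1 by 1.03 ± 0.07 and the clock factor Arntl (Bmal1) by 1.23 ± 0.09. The acetyltransferase Ep300 fell by 1.44 ± 0.11. Substrates and partners of Sirt2 had 2 of 11 measured genes (14 listed) higher, 4 lower and 5 not passing at 6 h (median -0.12), and 1, 3 and 7 at 2 h (median -0.02). The mitotic regulators Cdc20 and Bub1b had -2.26 ± 0.06 and -0.71 ± 0.06 at 6 h. Hdac6, the other tubulin deacetylase, rose by 0.99 ± 0.11, and Fzr1 had -0.46 ± 0.07, with -0.38 and -0.15 for its other probes, of which the last did not pass.

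Mitochondrial substrates of Sirt3 and Sirt5 were more often higher than lower at 6 h, 13 of 20 measured genes (29 listed) against 3 lower and 4 not passing (median 0.34), with 6 higher, 3 lower and 11 not passing at 2 h (median 0.09). Of all 9153 genes 38.3% were higher and 38.0% lower at 6 h, and 27.0% and 29.6% at 2 h. Sod2, the manganese superoxide dismutase, rose by 0.99 ± 0.06 at 6 h and 0.56 ± 0.06 at 2 h. Ppif, cyclophilin D of the permeability pore, rose by 0.70 ± 0.05 and 0.85 ± 0.05. Ndufa9 of complex I had -0.73 ± 0.05 and -0.18 ± 0.05, and Pdha1 of pyruvate dehydrogenase -0.59 ± 0.06 and -0.18 ± 0.06. Mitochondrial unfolded protein and antioxidant genes were split, with 5 of 17 measured (19 listed) higher, 6 lower and 6 not passing at 6 h (median 0.08), and 3, 4 and 10 at 2 h (median 0.04). Besides Sod2 in both lists, the protease Lonp1, also in both, rose by 0.69 ± 0.08 at 6 h. Nrf1, nuclear respiratory factor 1, had -0.66 ± 0.06, and the thioredoxin reductase Txnrd2 -0.69 ± 0.07, with -0.19 by its other probe, which did not pass.

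Target genes and partners of Sirt6 and Sirt7 had 10 of 23 measured genes (27 listed) higher, 9 lower and 4 not passing at 6 h (median 0.06), and 7, 7 and 9 at 2 h (median -0.03). Sp7, the osteoblast factor osterix, which Sirt7 deacylates in mouse osteoblasts, had -4.23 ± 0.08 at 6 h. Ubtf, a factor of RNA polymerase I transcription, had -1.94 ± 0.07 at 6 h and -0.44 ± 0.07 at 2 h (-1.63 and -0.37 by its other probe). Elk4, which brings SIRT7 to promoters in human cells, had -1.03 ± 0.08, and Rrp9, a protein of the U3 nucleolar particle, rose by 0.97 ± 0.07.

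Lysine 16 of histone H4 is deacetylated by Sirt1 and Sirt2 and acetylated by Kat8 within the MSL and NSL complexes. Of these writers 3 of 9 measured genes (11 listed) were higher, 4 lower and 2 not passing at 6 h (median 0.07), and 3, 5 and 1 at 2 h (median -0.40). Hcfc1 had -2.16 ± 0.07, Mcrs1 -1.70 ± 0.07, Msl1 -2.18 ± 0.10 (-1.18 by its other probe) and Kansl2 -0.66 ± 0.06 at 6 h, while Wdr5 rose by 0.78 ± 0.08. Kat8 itself, named outside the rule, had 0.07 ± 0.07 at 6 h (limma adjusted p = 0.434) and -0.40 ± 0.07 at 2 h (adjusted p = 0.000382). The zinc-dependent histone deacetylases, the family that holds the targets of SAHA, had 5 of 9 measured genes (11 listed) higher, 2 lower and 2 not passing at 6 h (median 0.24), and 4, 1 and 4 at 2 h (median 0.16). Hdac11 rose by 1.38 ± 0.10 at 6 h and Hdac3 by 0.55 ± 0.05, whereas Hdac7 had -2.12 ± 0.07.

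**Figure D4:**
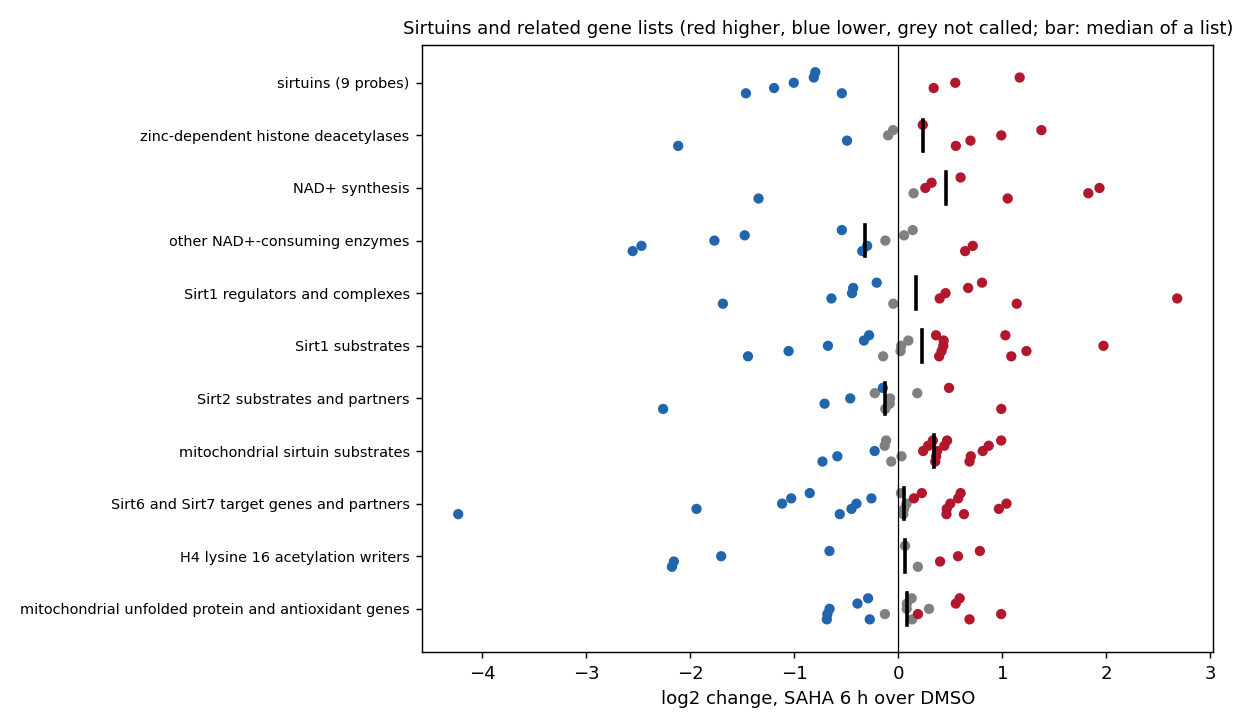
Log2 change of SAHA 6 h over DMSO for the 9 tested sirtuin probes (top row) and for the measured genes of 10 related lists, 1 circle a probe or gene. Red is called higher, blue called lower and grey not called, and a bar is the median of a list. NAD+ synthesis has a median of 0.46 (0.29 with Nadk2 at its bound) and the other NAD+-consuming enzymes -0.32.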

How the data were processed

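Per the file headers, the main deposited table gives for each probe and array a linear intensity before normalization and a detection p-value. The authors also deposited a normalized intensity, whose method is not given in the sources used here. Intensities were corrected with limma 3.58.1 in R 4.3.3 (normexp from the detection p-values, offset 16), quantile-normalized and taken as log2. This removes shifts shared by all probes, and the offset shrinks changes of dim probes. The 16431 probes with a detection p under 0.01 on at least 4 of 12 arrays were fitted with limma, 3 groups together, two-sided, with Benjamini-Hochberg adjustment over all of them. A probe undetected on a whole group has a bound, against the lowest detected signal of each array. The bound depends on this normalization, and a p-value printed beside it is that of the log2 change itself. Symbols came from the platform annotation updated to RefSeq (1 symbol for 34885 probes, several for 18, none for 10378). Members and lists were chosen with earlier results of these data known. The rule names, per list, the 4 smallest p at 6 h and the strongest opposite mover, and per sirtuin the 3 genes with the highest r. Alternatives covered background, normalization, filter, probe per gene, fit, threshold, the authors' values with and without block, and each array left out. The fit was tested on simulated data. Neither slides nor dates of the arrays are stated.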

Additional observations from a re-analysis of the deposited data

Results flagged for a closer look

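The change under SAHA differed between 6 h and 2 h for 4 sirtuin probes, by the test of the difference in limma. The 6 h effect minus the 2 h effect was 0.46 on the log2 scale for Sirt1 (adjusted p = 0.00199), 0.24 for Sirt3 (adjusted p = 0.00991), 0.42 for Sirt7 (adjusted p = 7.33e-05) and -0.41 for the Sirt5 probe ILMN_2711045 (adjusted p = 0.00971). Over all tested probes 56.3% differed in this test. Dixon's test for an array far from the other 3 of its group was run on 27 groups of sirtuin values and marked 0, where chance marks about 1 in 20.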

How the results depend on the processing

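Of 657 log2 changes of sirtuin probes recomputed under other settings, 636 kept their direction and their side of the threshold, 9 came to pass it, 6 no longer passed it and 6 turned their sign. Settings that changed only the threshold, the filter, the probe per gene or the estimate of the spread kept the main log2 change, so its sign could not turn there. Fits with 1 array left out share most of their arrays. All 6 that turned belong to SAHA 6 h against SAHA 2 h. With no normalization between arrays they were Sirt2 (-0.082), Sirt3 (-0.016) and the Sirt6 probes ILMN_2671176 (-0.086) and ILMN_2684909 (-0.12). Without SAHA 2 h array 6 the Sirt6 probe ILMN_2684910 had 0.065 (range over all arrays left out in turn, -0.22 to 0.065), and without SAHA 6 h array 9 ILMN_2684909 had -0.010 (range -0.010 to 0.13). The cause was not tested. The count of sirtuin probes called in that comparison was 4, and 1 with median scaling or with no normalization. At 2 h against DMSO the count was 8, and 5 with only probes detected on all arrays or with 1 probe per gene, both of which leave fewer sirtuin probes to test. With 1 probe per gene the counts over all probes were 7083 at 6 h, 5360 at 2 h and 5743 between the times, from 9153 genes, against 11970, 8784 and 9253 over all probes. With no normalization the last was 5852. Leaving out 1 array at a time gave 9 to 9, 8 to 8 and 4 to 5 sirtuin probes, and 11591 to 12044, 8115 to 8860 and 8569 to 9245 of all probes.

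Replicate numbers are carried only by the authors' normalized values. Samples of the same number correlated at r = 0.0134 to 0.394 in their deviations from the group mean over 12 pairs (median 0.219). Of these 9 were over 0.1. The 36 pairs of different number had a median of -0.093 and a maximum of 0.288, and 9 of them were over 0.1. Because deviations within a group cancel, higher values for same-number pairs draw down the others, so the 2 medians are not independent. Of 12 samples 9 correlated best with their own number. These correlations are a hint from the data that numbers mark shared sets, but the labels do not state it. Not every same-number pair was over 0.1, so the fit without the block was kept. With the replicate block the sirtuin counts were 9 at 6 h, 8 at 2 h and 5 between the times, as without it, and 12429, 9753 and 10081 over all probes, against 12021, 9108 and 9454 without the block. Signal over background limits the Sirt6 probes and ILMN_1215571, and 4 arrays a group limit the precision of all.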

Other observations

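Sirt4, a mitochondrial ADP-ribosyltransferase and lipoamidase and the family member outside the 6 genes above, was detected on all 12 arrays by ILMN_1259494. Log2 intensities of the probe were 8.93, 9.20, 9.24 and 9.07 in the SAHA 6 h group, 8.32, 8.46, 8.52 and 8.61 in the SAHA 2 h group and 8.78, 8.89, 8.76 and 8.91 in the DMSO group. The 3 groups did not overlap, and the order placed DMSO between the SAHA groups. Sirt4 rose at 6 h by 0.27 ± 0.08 against DMSO (limma adjusted p = 0.00873) and had -0.36 ± 0.08 at 2 h (adjusted p = 0.00237). The difference between 6 h and 2 h was 0.63 ± 0.08 (adjusted p = 2.38e-05). It was chosen with its values known.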
